A study of Mus musculus with 12 samples.

Results

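The genes described here are the potassium channel genes of the mouse, taken as every gene of the deposited table whose symbol has the form Kcn, a letter or letters, and a number. There were 92 such genes among 55304 genes. Membership was set by symbol alone, but the choice was made with earlier results of these data known. Their RNA was measured by RNA-seq in corticotrophs, the ACTH-releasing cells of the anterior pituitary, sorted by fluorescence from adult male Pomc-eGFP mice (labelled genotype POMC-GFP, on a C57BL/6J background), in which green fluorescent protein is expressed under the Pomc promoter. There were 4 groups of 3 pools, and each pool held the sorted cells of several anterior pituitaries freed of the intermediate and posterior lobes. Control mice had standard drinking water. The DEX group received dexamethasone, a synthetic glucocorticoid, at 2.5 µg/ml in the water for 4 weeks and was collected at day 0 of recovery. The other 2 groups received the same treatment and were collected 7 days (1 week after DEX) and 28 days (4 weeks after DEX) after return to standard water. All pools share the reporter transgene, so the sort itself depended on Pomc promoter activity.

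Potassium channels let potassium ions out of the cell along their gradient, hold the membrane potential negative and end action potentials. Corticotrophs fire action potentials and calcium-dependent bursts, and hypothalamic CRH and vasopressin raise this activity before ACTH is released, while glucocorticoids restrain it. Pore subunits fall into voltage-gated, calcium-activated or sodium-activated, inward rectifier and 2-pore domain (leak) families. Modifier subunits form no channel alone, and auxiliary subunits change the gating or surface level of the pore they bind.

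Values are given as normalised signal, that is, counts divided by the effective library size (CPM after TMM scaling). Reads on genes ranged from 7719894 to 12848078 per pool, and 1 read was worth 0.0787 to 0.127 and members near 1 rest on few reads. Because the libraries were amplified and hold no molecular identifiers, read numbers are not numbers of molecules, and counting error is only part of their error. Corticotroph markers were present in every pool. Pomc ranged from 4241 to 284740 and Tbx19, the T-box factor that activates Pomc in this lineage, from 39.5 to 1490. Gh, the somatotroph hormone, ranged from 67563 to 265851, so RNA of other pituitary cells was present in every pool. The lowest Tbx19 level was in pool 3 of the group 1 week after DEX, which also had the lowest Crhr1 (12.5) and Avpr1b (1.56) but kept 43612 of Pomc. Tbx19 was 459, 229 and 218 in control pools and 769, 498 and 1490 in DEX pools, with no overlap between those groups.

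Of the 92 genes, 83 passed the filter of more than 0.1 in at least 3 pools and were tested, 57 had a mean above 1 and 22 had a mean above 10. Kcna10, a voltage-gated pore, and Kcnk16, a 2-pore channel, were at 0 in all 12 pools. The other 7 genes under the filter (Kcnq5, Kcnk15, Kcnk18, Kcnmb1, Kcnj16, Kcnv1 and Kcne1) reached at most 0.370 in any pool. By family, 28 of 30 voltage-gated pores, 9 of 10 modifiers, all 4 Slo channels (BK and its sodium-activated relatives), all 4 small and intermediate conductance calcium-activated channels, 14 of 15 inward rectifiers, 11 of 14 2-pore channels and 13 of 15 auxiliary subunits were tested.

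The most abundant members were compared per kilobase of annotated exon, since longer transcripts collect more reads. Kcnip3, a calcium-binding protein known both as an auxiliary subunit of A-type channels and as a transcriptional repressor, had the highest mean level over all pools, 40.9 normalised signal per kb. The leak channel genes Kcnk1 (37.7 per kb) and Kcnk2 (18.8 per kb) came next. They were followed by the delayed rectifier Kcna5 (16.7 per kb) and by Kcnh2 (15.1 per kb), the Erg channel that repolarises cardiac and endocrine cells. Kcnmb2, a BK auxiliary subunit, had 9.13 per kb and the BK pore gene Kcnma1 had 2.04 per kb. The length used joins the exons of all annotated transcripts of a gene and can exceed that of a single transcript. Before division by length, Kcnma1 was higher than Kcnmb2 in some pools and lower in others. Kcnh8 (7.22), Kcna3 (5.87), Kcnip2 (4.11) and Kcnj3 (3.73 per kb), an inward rectifier opened by G proteins, completed the first 10. The first place of Kcnip3 rests on the DEX group, where it had 78.9 per kb and Kcnk1 36.0, while in control and at 1 and 4 weeks after DEX Kcnip3 had 26.6, 31.2 and 26.8 and Kcnk1 had 32.7, 38.6 and 43.3 per kb. Kcnip3 and Kcnk1 ranged from 34.5 to 435 and from 53.3 to 118 in normalised signal over the 12 pools, and their ranges also overlap per kb.

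**Figure D1:**
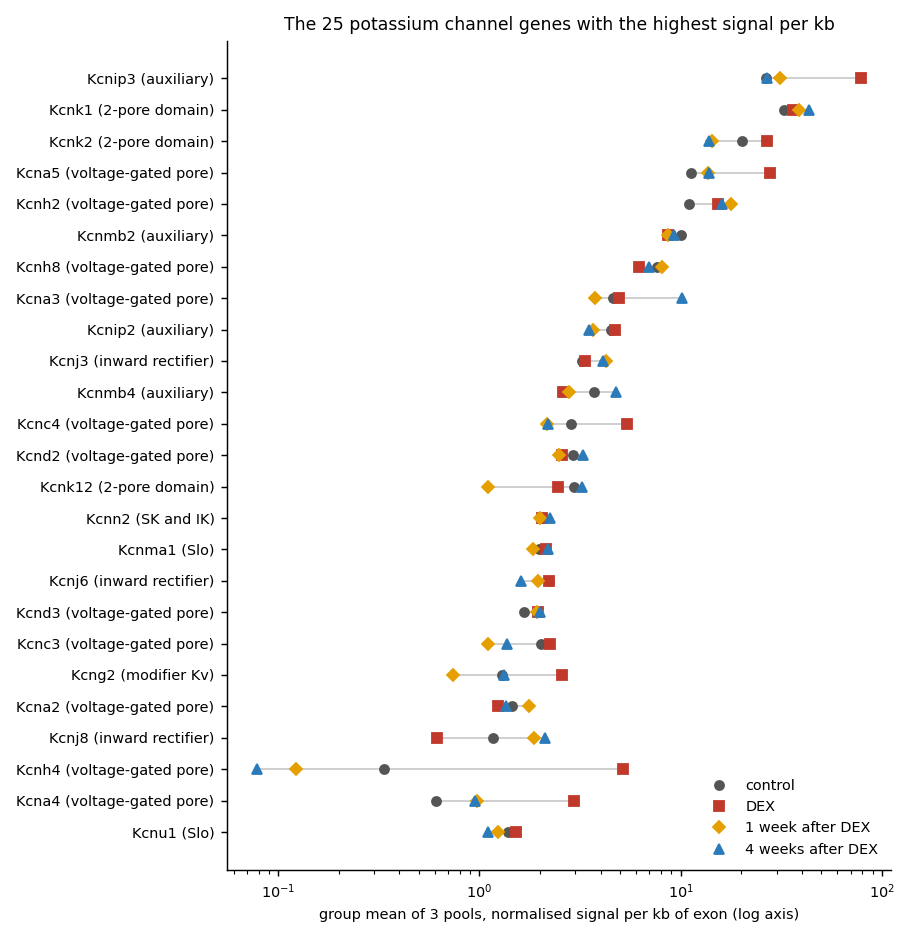
Mean normalised signal per kb of exon (x axis, log scale) of the 25 potassium channel genes with the highest level among those with a mean above 1, with a symbol for the mean of 3 pools in each group. Kcnip3 and Kcnk1 lead at 40.9 and 37.7 per kb over all pools, Kcnk1 is the higher of them in 3 of the 4 groups, and Kcnh4 has the widest gap between its DEX mean and the other groups.

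Across the 4 groups, 1 of the 83 tested members passed the F test of limma at an adjusted p under 0.05, against 0.315% of all genes tested. That gene was Kcnh4 (ENSMUSG00000035355.15), which encodes a voltage-gated channel subunit of the Elk type, in the same subfamily as Kcnh3 and Kcnh8. At an unadjusted p under 0.05 there were 12 members (among them Kcnh4, Kcnc1, Kcnk2, Kcna4, Kcnip1, Kcnj8, Kcnip3, Kcnj12, Kcnab1, Kcng2 and Kcnq3), or 12 of 83 against 9.21% of all genes. edgeR's quasi-likelihood test on the recovered reads also called 1 member, against 0.639% of all genes. Its likelihood ratio test called 7 members, against 4.22% of all genes, namely Kcnh4, Kcna4, Kcna5, Kcnc1, Kcnip1, Kcnip3 and Kcnk10, of which Kcnk10 was named after its values were seen. The replicates are pools of mice, so every p-value measures the spread between pools.

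Kcnh4 lies on chromosome 11, from 100740376 to 100759942 on the minus strand of GRCm38 (GENCODE M21). Its normalised signal was 2.52, 0.471 and 0.979 in the control pools, on 32, 4 and 9 reads. In the DEX pools it was 18.6, 11.7 and 30.8, on 224, 143 and 275 reads. All 3 DEX pools lay above all control pools, with means of 20.4 ± 9.70 (SD, n = 3) and 1.32 ± 1.07 (SD, n = 3). At 1 week after DEX the pools had 0.665, 0.127 and 0.667, and 4 weeks after DEX they had 0.462, 0.109 and 0.361. Both recovery groups were thus at the level of 1 to 7 reads per pool and lay wholly below the DEX pools.

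On the log2(value + 0.1) scale Kcnh4 rose by 4.01 in DEX against control (SE 0.71, 95% interval 2.50 to 5.53, limma adjusted p = 0.0367), a 16.2-fold difference. Low values make this size depend on the added constant, and with 0.5 or 1 in place of 0.1 it was 3.57 or 3.20. It fell by 5.21 from DEX to 1 week after DEX (SE 0.71, limma adjusted p = 0.00482) and was 5.65 below DEX at 4 weeks (limma log2 difference −5.65, adjusted p = 0.00246). Against control the differences were −1.20 (95% interval −2.71 to 0.32) at 1 week and −1.63 (95% interval −3.15 to −0.11) at 4 weeks, neither past the test (limma adjusted p = 1 and 0.764). All 3 pools at 4 weeks lay below all 3 control pools, but only just. The highest of them had 0.462 on 5 reads, and the lowest control pool had 0.471 on 4 reads. The adjusted p of the F test was 0.00614. It became 0.0928 without DEX pool 1 and 0.120 without DEX pool 3, and the difference between DEX and control kept a log2 value of 3.50 to 4.59 in all 12 fits that left out a pool but passed the threshold in 5 of them (limma adjusted p from 0.0166 to 0.422).

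The sequence upstream of Kcnh4 is shown because it is the one member with a called change. RefSeq and GENCODE place its start differently, and 164 of the 250 bases before the RefSeq start lie inside the GENCODE gene. For this reason only the 86 bases upstream of both starts are shown (RefSeq sequence, GRCm38.p6, chr11:100759943-100760028, minus strand, 5′ to 3′). Of 5 motifs searched on both strands in the 250 bases, the E-box CACGTG (its own reverse complement) was the one found, at chr11:100759860-100759865, inside the GENCODE gene and outside the bases shown. The others were AGAACA (the glucocorticoid half-site), the whole glucocorticoid element (AGAACA and TGTTCT with 3 bases between, which includes the half-site), the cAMP response element (TGAC followed by GTCA) and the NBRE of orphan nuclear receptors (AAAGG followed by TCA). The leak channel gene Kcnk2, the third most abundant member per kb, is shown beside it as a member whose window (chr1:189402274-189402523, minus strand, the most upstream of its 4 annotated starts) holds the half-site, marked by capitals.
Kcnh4: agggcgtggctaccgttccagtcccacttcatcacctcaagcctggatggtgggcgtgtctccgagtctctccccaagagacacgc
Kcnk2: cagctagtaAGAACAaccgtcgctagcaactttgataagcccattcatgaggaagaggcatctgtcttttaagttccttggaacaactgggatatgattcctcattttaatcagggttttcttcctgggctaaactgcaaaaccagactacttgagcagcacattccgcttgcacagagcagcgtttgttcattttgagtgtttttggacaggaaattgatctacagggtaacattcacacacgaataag
The half-site was in 16.1% of all 32851 upstream windows of 250 bases and in 14.1% of the 92 windows of the 67 members matched in RefSeq. The E-box was in 6.02% of all windows and 6.52% of members' windows. The whole glucocorticoid element was in 0.00913% of all windows and in none of the members' windows. These matches describe the letters in the windows and were not tested against the expression values.

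The neighbours of Kcnh4 that were looked up did not pass the F test of limma. Hcrt, the orexin precursor and the nearest of them upstream, had 0.315, 0.236 and 1.52 in control and 0.0828, 0.572 and 1.01 in DEX pools. Rab5c, whose end lies within 10 kb of Kcnh4 and which encodes an endosomal GTPase, had 14.9, 15.9 and 27.1 in control and 27.2, 29.3 and 78.0 in DEX pools. Ghdc, beyond Hcrt, had 14.6, 18.4 and 24.5 in control and 13.6, 16.0 and 14.5 in DEX pools.

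In DEX against control, Kcnh4 was the only member past the adjusted test, 1 of 83 against 0.121% of all genes. At an unadjusted p under 0.05 there were 9 of 83 members, against 6.8% of all genes, and all 9 were higher in DEX, against 3.6% of all genes. Pools did not overlap for 10 members that were higher in DEX, against 6.61% of all genes, and for 4 that were lower, against 6.23%. The median log2 difference was 0.18 over the 83 members and −0.02 over all genes tested. Among the 28 voltage-gated pores, 6 had an unadjusted p under 0.05, to be read against the same 6.8% (Kcnh4, Kcna4, Kcnc1, Kcnq3 and Kcna5 among them). Among the 13 auxiliary subunits there were 3 (Kcnip3, Kcnip1 and Kcnab3), and the modifier, Slo, calcium-activated, inward rectifier and 2-pore families held none.

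**Figure D2:**
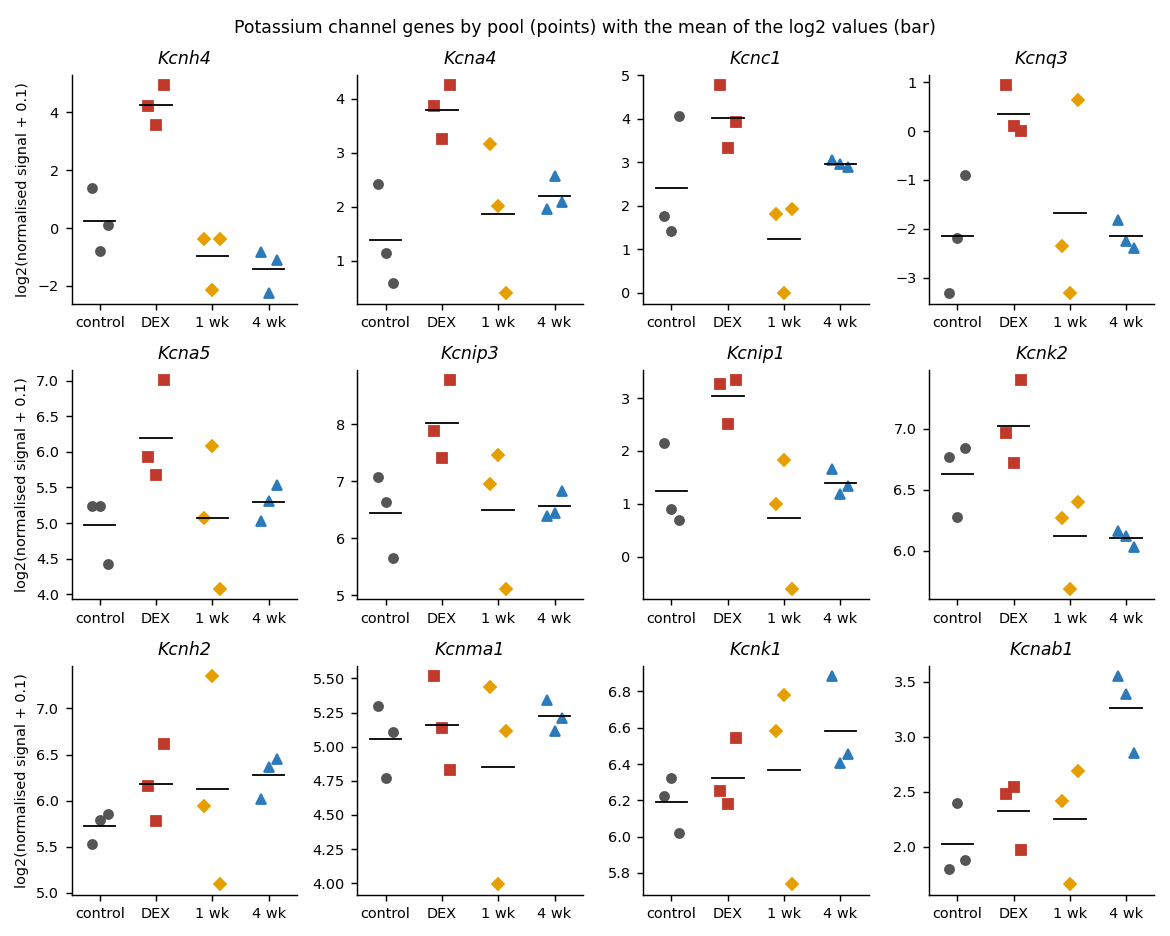
log2(normalised signal + 0.1) of 12 potassium channel genes in each pool (points) of the control, DEX, 1 week after DEX (1 wk) and 4 weeks after DEX (4 wk) groups, with the mean of the 3 log2 values as a bar and a separate y axis for each gene. Kcnh4 is the member with a called difference, and Kcnma1 and Kcnk1 are shown as abundant members whose control and DEX pools overlap.

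Among the voltage-gated pores, Kcna4, the Shaker-type subunit of rapidly inactivating current, had 5.27, 2.12 and 1.41 in control pools and 14.4, 9.48 and 19.0 in DEX pools. The groups did not overlap, and the log2 difference was 2.40 (95% interval 1.09 to 3.70, limma adjusted p = 0.223). limma with array weights, edgeR's likelihood ratio test and DESeq2 each called it, while limma without weights and edgeR's quasi-likelihood test did not. Kcnc1, a Shaw-type subunit of channels that allow short action potentials, had 3.30, 2.59 and 16.5 in control pools and 27.2, 9.89 and 15.1 in DEX pools. Control pool 3 lay inside the DEX range, and the log2 difference was 1.59 (SE 0.64, limma adjusted p = 0.657).

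Kcnq3, a voltage-gated pore subunit of slow current that restrains repeated firing, had 0, 0.118 and 0.435 in control and 1.82, 0.981 and 0.897 in DEX pools, so it rests on few reads. The DEX pools lay above all control pools (log2 difference 2.49, SE 0.90, limma adjusted p = 0.538, and 1.35 or 0.91 with 0.5 or 1 added in place of 0.1). In pool 3 of the group 1 week after DEX, however, Kcnq3 was at 1.45, inside the DEX range.

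Kcna5, a delayed rectifier, had 37.8, 37.6 and 21.4 in control pools and 60.6, 51.0 and 128 in DEX pools (log2 difference 1.23, SE 0.44, limma adjusted p = 0.526). Kcnip3 had 134, 99.0 and 50.0 in control pools and 236, 169 and 435 in DEX pools (log2 difference 1.57, SE 0.51, limma adjusted p = 0.432). Kcnip1, an A-type channel auxiliary subunit like Kcnip3, had 4.33, 1.77 and 1.52 in control pools and 9.53, 5.56 and 9.98 in DEX pools (log2 difference 1.79, limma adjusted p = 0.458). In each of these genes DEX pool 3 held the highest value of the 12 pools and DEX pools lay above all control pools. Kcnab3, a cytoplasmic subunit of Shaker-type channels, was lower in level, at 0.707 to 2.67 in control and 2.98 to 4.04 in DEX pools.

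Tbx19 was higher in every DEX pool than in any control pool, with DEX pool 3 again the highest at 1490. The corticotroph markers as a list did not move one way. On the log2 scale the differences in DEX were 1.55 for Tbx19 and 1.87 for Avpr1b, the vasopressin receptor, against −3.41 for Pomc, −0.61 for Crhr1, the CRH receptor, −0.43 for Pcsk1, which cleaves the Pomc product, and 0.01 for Neurod1, and none of the 6 passed the test of limma. Divided by Tbx19, Kcnip3 had 230 to 432 per 1000 Tbx19 in control and 292 to 339 in DEX pools. Kcna5 had 82.3 to 164 and 78.8 to 102, so neither separated DEX from control. In the recovery groups Kcnip3 lay above every control and DEX pool on this scale, at 436 to 873 at 1 week and 505 to 923 at 4 weeks. Kcna5 had 119 to 425 at 1 week and 196 to 418 at 4 weeks. Kcnh4 had 5.49, 2.06 and 4.49 per 1000 Tbx19 in control and 24.1, 23.5 and 20.7 in DEX pools, a ratio of means of 5.68, without overlap. It had 2.36, 0.331 and 16.9 at 1 week, the last in the pool with the low Tbx19, and 1.16 to 2.78 at 4 weeks. Kcna4 had 6.49 to 11.5 in control and 12.7 to 19.1 in DEX pools on the same scale, with a ratio of means of 1.85. It was not highest in DEX on this scale, with 10.3 to 31.3 at 1 week and 22.1 to 61.5 at 4 weeks. With the Tbx19 level as a covariate, an alternative chosen after seeing the data, the log2 difference of Kcnip3 was 0.47 in place of 1.57 and that of Kcna5 was 0.41 in place of 1.23. The corresponding value of Kcnh4 was 3.87 in place of 4.01, though its limma adjusted p was 0.124. The part of Tbx19 level in these differences was not tested, and in bulk pools a larger share of corticotrophs and more RNA per cell cannot be told apart.

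**Figure D3:**
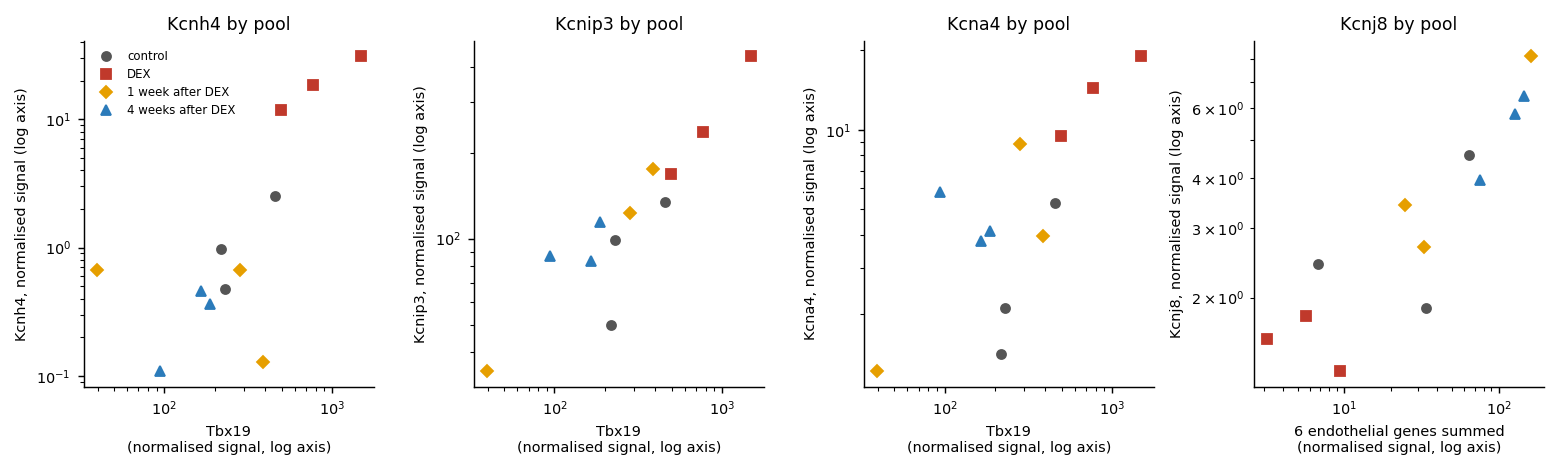
Normalised signal of Kcnh4, Kcnip3 and Kcna4 against Tbx19, and of Kcnj8 against the sum of 6 endothelial genes, each point being 1 of 12 pools (both axes log scale). Divided by Tbx19, Kcnip3 overlaps between control and DEX pools and lies above both in all recovery pools, by a small margin in the closest. Kcnh4 is at 11.7 to 30.8 in the DEX pools and at most 2.52 elsewhere. However, all 3 DEX pools also lie above every other pool in Tbx19. Kcnj8 is lowest in the DEX pools, where the endothelial sum is at most 9.32.

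On the lower side in DEX stood Kcnj8, an inward rectifier of ATP-sensitive channels best known from pericytes and vascular muscle. It had 2.44, 1.88 and 4.57 in control pools, 1.57, 1.31 and 1.79 in DEX pools, 3.42, 2.68 and 8.12 at 1 week and 3.97 to 6.46 at 4 weeks. The DEX pools lay below all other pools, and none of the contrasts passed the test (limma adjusted p of the F test = 0.378). The summed level of 6 endothelial genes was 6.77 to 64.0 in control, 3.15 to 9.32 in DEX, 24.9 to 163 at 1 week and 76.0 to 145 at 4 weeks, and 2 of the 6 (Kdr and Emcn) passed the F test of limma. Of the defining genes, Plvap had 1.33 to 4.17 in DEX pools. The summed level of 6 pericyte and mural genes was 4.09 to 10.1 in control, 4.22 to 4.99 in DEX, 4.56 to 8.12 at 1 week and 9.47 to 16.4 at 4 weeks. Notch3 made up most of the DEX sum, at 3.27 to 3.70 (log2 difference 0.42), while Pdgfrb, Rgs5, Cspg4 and Acta2 had log2 differences of −1.37, −1.79, −1.20 and −0.83 in DEX and Des 0.68, none past the test of limma. The part of these cells in the Kcnj8 values was not tested. Kcnip4, Kcnb2 and Kcnh7 were the other members with all DEX pools below control, and Kcnip4, named after its values were seen, had 2.39 to 4.71 in control and 1.57 to 2.21 in DEX pools.

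**Figure D4:**
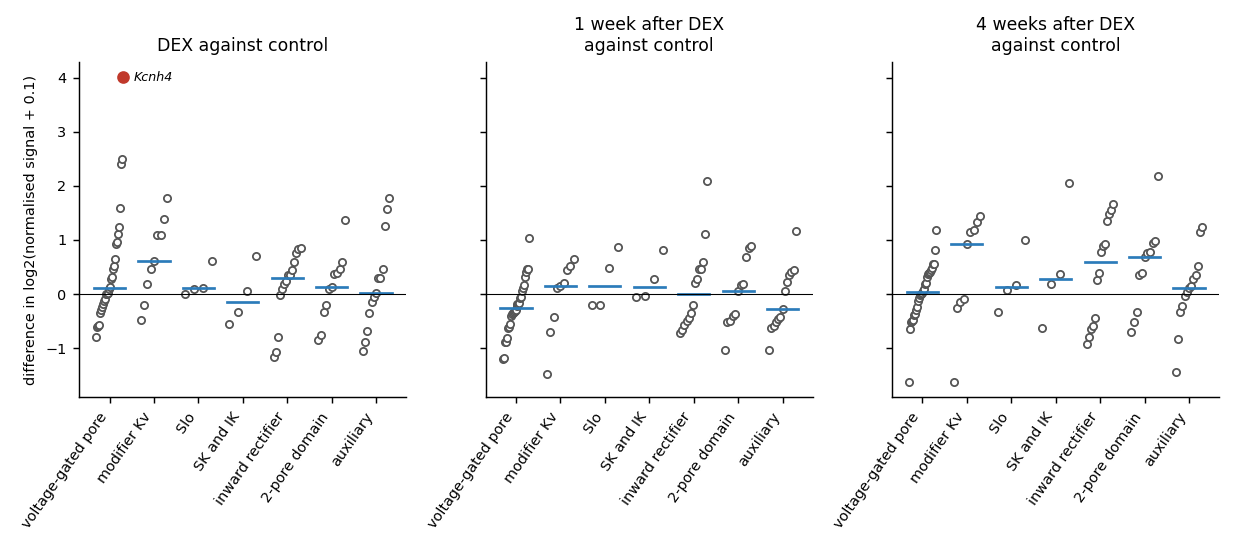
Difference in log2(normalised signal + 0.1) of each tested potassium channel gene (circles) against control, by family on the x axis, for DEX, 1 week after DEX and 4 weeks after DEX, with the family median as a blue bar. The filled circle is Kcnh4 in DEX at 4.01, and no member passed the adjusted test in the other 2 panels.

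At 1 week after DEX, no member differed from control at an adjusted p under 0.05 in limma, against 0% of all genes. At an unadjusted p under 0.05 there were 2 members, Kcnd1 and the inward rectifier Kcnj15, against 3.79% of all genes. The count models (edgeR by quasi-likelihood or likelihood ratio, and DESeq2) called 0 members each, beside 1, 51 and 8 of the 24736 genes. The pools did not overlap for 1 member that was higher (3.47% of all genes) and 1 that was lower (2.61%). The higher member was Kcnd1, an A-type pore subunit, at 1.65, 3.18 and 3.37 in control and 4.66, 5.74 and 6.12 at 1 week (log2 difference 1.04, limma adjusted p = 1). The lower member was Kcnc2, a Shaw-type pore. Kcnj15 and Kcnc2 were named after their values were seen. The median log2 difference was −0.16 over the members and 0.00 over all genes. Within that group pool 3, with the low Tbx19, often stood apart. It held the lowest Kcnip3 (34.5 against 123 and 175), Kcna5 (16.8) and Kcnh2 (34.0) of all 12 pools and the highest Kcnh8 (62.7).

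At 4 weeks after DEX, again no member was called against control by limma, against 0% of all genes, with 5 members at an unadjusted p under 0.05, against 6.35% of all genes (Kcnh4, Kcnab1, Kcnj12 and, named after their values were seen, Kcng1 and Kcnk5). The count models called 0 members, beside 0, 93 and 60 genes in the same order. Pools did not overlap for 9 members that were higher (6.77% of all genes) and 3 that were lower (6.42%). Kcnab1, a cytoplasmic subunit of Shaker-type channels, had 3.38, 5.18 and 3.59 in control and 11.6, 10.4 and 7.13 at 4 weeks, with a log2 difference of 1.24 (95% interval 0.41 to 2.07, limma adjusted p = 0.612). Its DEX and 1 week pools ranged from 3.06 to 6.34. Kcna3, a delayed rectifier also common in immune cells, had 6.06 to 13.3 in control and 15.6 to 24.9 at 4 weeks. The macrophage gene sum was 18.1 to 20.8 in control and 17.3 to 47.9 at 4 weeks, and its part in the Kcna3 values was not tested. Kcng4, a modifier subunit, had 1.26 to 2.94 in control and 3.50 to 5.82 at 4 weeks. The members with all pools lower were Kcnk2, Kcnh4 (at the closest 0.462 on 5 reads against 0.471 on 4 reads) and Kcnmb3. Kcnmb3, a BK auxiliary subunit, was at 1.4 to 2.72 in control and 0.277 to 1.20 at 4 weeks.

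The recovery groups were also set against the DEX group, which both comparisons share. From DEX to 1 week after DEX, 1 member passed the test, against 0.433% of all genes, and from DEX to 4 weeks after DEX 1 member passed, against 0.873%. Both times it was Kcnh4. At an unadjusted p under 0.05 there were 18 members at 1 week, against 10.8% of all genes, of which 13 were lower than in DEX, against 5.59%. At 4 weeks there were 15 members, against 9.94%, of which 8 were lower, against 4.62%. At 1 week 11 members lay wholly below DEX (6.87% of all genes) and 4 wholly above (Kcnj3, Kcnj8, Kcnd1 and Kcnn3, 6.97%). At 4 weeks 13 lay wholly below (9.67%) and 8 wholly above (9.8%).

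Kcnk2, the leak channel that responds to stretch and lipids, showed both recovery groups below DEX. It had 109, 77.3 and 115 in control, 125, 105 and 168 in DEX, 77.1, 51.4 and 84.4 at 1 week and 71.5, 69.5 and 65.2 at 4 weeks. The log2 differences from DEX were −0.91 (95% interval −1.46 to −0.35, limma adjusted p = 0.149) and −0.92 (95% interval −1.48 to −0.36, limma adjusted p = 0.134). At 4 weeks its pools were also below all control pools, and the 3 values lay within 65.2 to 71.5. Kcnc1 had 3.42, 0.892 and 3.67 at 1 week, all below DEX, and 8.22, 7.66 and 7.31 at 4 weeks. Its log2 difference from DEX at 1 week was −2.77 (SE 0.64, limma adjusted p = 0.0690). That difference was called once the pool number entered as a block, and with array weights, edgeR's likelihood ratio test or DESeq2. It was also called without control pool 3, but not by edgeR's quasi-likelihood test. Kcng2, a modifier subunit, had 5.72 to 8.78 in DEX and 1.66 to 3.33 at 1 week. Kcna4 (1.22 to 8.84 and 3.79 to 5.80) and Kcnip1 (0.556 to 3.44 and 2.19 to 3.05) also lay wholly below their DEX pools. Between 4 weeks and 1 week no member was called, against 0% of all genes, with 5 at an unadjusted p under 0.05, against 5.47% of all genes (Kcnn3, Kcnab1, Kcnc1, Kcna3 and Kcnj12). The count models called 0 members, beside 0, 165 and 15 genes.

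The calcium-activated channels, which link calcium entry to repolarisation and are a known target of stress hormones in these cells, gave no call in any comparison. The BK pore Kcnma1 had 39.2, 27.2 and 34.5 in control, 45.7, 35.2 and 28.3 in DEX, 43.3, 15.8 and 34.6 at 1 week and 40.6, 34.5 and 36.9 at 4 weeks. Its log2 difference in DEX was 0.10, with a 95% interval of −0.60 to 0.80. Differences inside that interval remain possible, and the interval is not a limit of detection for the adjusted test. The small conductance channel Kcnn2 gave 0.05 (95% interval −0.60 to 0.69). Its relatives Kcnn1 and Kcnn3 gave 0.71 (SE 0.41) and −0.56 (SE 0.36), and Kcnn4, the intermediate conductance channel, was at 0 to 2.26 in all pools. Of the BK auxiliary subunits, Kcnmb2 gave −0.15 (95% interval −0.94 to 0.64) and Kcnmb4 −0.35 (95% interval −1.35 to 0.65). Kcnmb1, the smooth muscle form, was above 0 in 1 pool of the 12, at 0.370.

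Several other members overlapped between control and DEX. Kcnk1 gave a log2 difference of 0.13 in DEX (95% interval −0.45 to 0.71), and its 4 week pools (84.6 to 118) lay above its control pools (64.9 to 79.9). Kcnh2 gave 0.46 in DEX (95% interval −0.42 to 1.34), and pool 2 at 1 week stood highest at 163. Kcnj3 gave 0.09 (95% interval −0.50 to 0.67). Kcnj11, the pore of the ATP-sensitive channel of endocrine cells, had 0.315 to 2.12 in control and 1.64 to 2.13 in DEX pools. Kcnj10 and Kcnj16, inward rectifiers known from glia and other supporting cells, were at 0 to 1.48 and at most 0.0924.

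Genes outside the Kcn names that encode partners of these channels were listed as a set of 14. All 14 were tested. None passed the F test of limma at an adjusted p under 0.05, against 0.315% of all genes. At an unadjusted p under 0.05 there were 2 of 14, against 9.21% of all genes. They were Amigo1, a cell adhesion protein, and Hcn3, a hyperpolarisation-activated channel. Amigo1 had 16.1 to 22.5 in control, 28.8 to 31.3 in DEX, 9.94 to 17.8 at 1 week and 25.7 to 46.9 at 4 weeks (limma adjusted p of the F test = 0.148). Hcn3 had 7.50 to 13.1 in control, 8.83 to 13.7 in DEX, 1.40 to 6.23 at 1 week and 5.64 to 6.24 at 4 weeks (limma adjusted p of the F test = 0.373). Dpp6, which carries A-type channels to the surface, had 6.0 per kb, more than Abcc8, the sulphonylurea receptor that pairs with Kcnj11, at 2.36 per kb.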

How the data were processed

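Amplification of RNA from GFP-positive cells used SMART-V4, and all libraries (4 groups, 3 pools each) shared 1 lane. Per the labels and methods, the authors trimmed reads with Trim Galore 0.6.5, aligned them to GRCm38 with STAR 2.7.1a and counted them per gene, by strand, with featureCounts 2.0.0. The deposited values are a normalised signal: the authors divided counts by TMM-scaled library sizes in edgeR, and 100% of the 271881 values above 0 were whole reads (tolerance 0.001). The design had assumed plain CPM and its limma test was kept. limma 3.58.1 in R 4.3.3 (lmFit, eBayes with trend) was fitted to log2(value + 0.1) of the 24736 genes above 0.1 in at least 3 pools, with all 12 pools in 1 model and Benjamini-Hochberg adjustment over all genes. This scale understates fold changes of low genes. Alternatives included edgeR 4.0.16 and DESeq2 1.42.0 on the recovered reads. Each test was checked on simulated data, where DESeq2 made several times more false calls than limma or edgeR and exceeded its nominal false discovery rate. The limit on false calls set for all tests was then kept for limma and edgeR only. Replicate numbers were not used as pairs in the main fit. Of the same-numbered pairs 7 of 18 correlated above 0.1, and of the others 7 of 36 (medians 0.056 and −0.014). With 3 pools per group these correlations cannot settle whether the numbers pair the pools. Members and gene lists were chosen with earlier results of these data known. Named genes were the members past any test, the 12 with the smallest F test p, members with a mean above 1, non-overlapping pools and a log2 difference past 1 against control, the 10 highest per kb, and those known from pituitary excitability or other cells of the sort. Members were checked for overlap of their whole gene spans with other same-strand genes of GENCODE M21, without regard to exons. Some members are not reported here.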

Additional observations from a re-analysis of the deposited data

Results flagged for a closer look

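Kcnh4 differed between collection times. Its log2 difference was −5.21 from DEX to 1 week after DEX and −5.65 from DEX to 4 weeks after DEX (limma contrasts, adjusted p = 0.00482 and 0.00246), so the group effects against control (4.01, −1.20 and −1.63) differed by a direct test. The value was higher in 3 of 3 DEX pools than in any other pool.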

How the results depend on the processing

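The F test called 1 member (and 78 of 24736 genes) in limma, 1 (158 genes) under edgeR's quasi-likelihood model, 5 (734 genes) with DESeq2, 6 (1069 genes) under array weights, 7 (1043 genes) with the likelihood ratio test of edgeR and 0 (10 genes) with Tbx19 as a covariate (chosen after seeing the data), and 0 to 2 with a pool left out. DEX against control gave 1 member, and 0 without the filter or with only the 2 groups compared, 3 (166 genes) with array weights, 4 (272) with the likelihood ratio test, 2 (190) with DESeq2, and 0 to 1 with a pool left out. Kcnh4 was lost there without control pool 2 or 3, DEX pool 1, 2 or 3, or pool 1 or 3 at 4 weeks. The comparison at 1 week after DEX against DEX gave 1, and 4 (566 genes) with array weights, 2 with the replicate number as a block (Kcnc1 was added), 7 (710) with the likelihood ratio test, 3 (573) with DESeq2, 0 with only the 2 groups compared, 2 with the Tbx19 covariate, and 0 to 2 with a pool left out. The comparison at 4 weeks after DEX against DEX gave 1, and 6 (1300 genes) with array weights, 4 (664) with the likelihood ratio test, 3 (655) with DESeq2 and 0 with the Tbx19 covariate. The causes were not tested. The replicate block changed no other call among members. Same-numbered control and 1 week pools correlated at 0.202, 0.136 and 0.397, and the block called 0 members between them. Kcnj12 in DEX against control reversed to −0.35 without DEX pool 1 (range −0.35 to 0.60), on 0 to a few reads per pool. Pseudocounts, scaling, robust moderation and the stricter filter left each count of called members within 1.5 times, but a pseudocount of 0.5 or 1 lowered the log2 difference of Kcnh4 in DEX from 4.01 to 3.57 or 3.20 and that of Kcnq3 from 2.49 to 1.35 or 0.91. Members under about 1 normalised signal rest on few reads, and differences there were detectable only if large.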

Other observations

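Kcna2 and Kcnd3, voltage-gated pores named after their values were seen, had their groups' highest normalised signal in control pool 3 (22.7 and 23.8) and in pool 3 at 1 week (43.5 and 35.7). Those pools had 218 and 39.5 of Tbx19, the lowest of their groups, though control pool 2 was close at 229. A relation of these genes to Tbx19 was not tested.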
